A study of Mus musculus with 20 samples.

Results

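The effect of low dietary casein was described across both fat levels, by setting all 10 low-casein left ventricles (LP and HF + LP) against all 10 normal-casein left ventricles (NP and HF) of the 20 mice sequenced, with fat level as a covariate. Members were the genes whose levels differed with casein in the same direction at normal and at high fat, which held for 6355 of the 13991 genes tested. No gene passed the test for the casein main effect in edgeR or in DESeq2 with the same additive model. DESeq2 fitted to 4 groups, an alternative added after seeing the data, called Irf7. The edgeR log2 fold change of Irf7 was -0.88 at normal fat and -2.25 at high fat. Among the leading genes, Hsd17b7, an enzyme of cholesterol synthesis, had higher counts in low casein, and Cmklr1, the receptor for chemerin, and interferon-stimulated genes such as Irf7 had lower counts. With fat as covariate, all 55 tested genes of the interferon response list had a log2 fold change below 0 (43.8% of all genes did), with a median of -0.57. Taken at each fat level, 40 of the 55 were below 0 at both. At normal fat 2 were lower at an unadjusted p under 0.05 (edgeR), near the 2.22% share over all genes. The list median was -0.96 at high fat and -0.22 at normal fat. With any 1 mouse left out the normal-fat value lay between -0.35 (without NP mouse 4) and -0.03 (without NP mouse 5).

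QuantSeq 3′ mRNA libraries were made from left ventricular tissue of 4 diet groups of 5 mice. NP mice ate a diet with 20% casein and LP mice a diet with 5% casein, both at normal fat. HF mice ate a high-fat diet with 20% casein, and HF + LP mice a high-fat diet with 5% casein. The study's methods describe male mice from the Jackson Laboratory, with no strain in the text, and the labels give an age of 18 months where the methods give a younger age at sacrifice. Carbohydrate replaced the casein that was removed, so that lower casein and higher carbohydrate cannot be told apart. Each library came from a different mouse and there was no genetic modification or agent other than the diet. Tissue was bulk ventricle, in which fewer cells of a type and less RNA per cell cannot be told apart.

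Body weight was lower in low casein at both fat levels (labels list weight without a unit, read here as grams). NP mice weighed 43.0 ± 7.82 g and LP mice 32.6 ± 2.69 g (mean ± SD, n = 5 each), while HF mice weighed 58.9 ± 1.76 g and HF + LP mice 48.6 ± 5.93 g. Averaged over the fat levels the difference was -10.4 g, with an adjusted p of 0.00132 over 3 measures in a two-sided exact permutation test within fat level (63504 arrangements). Total counts lay between 12559607 and 23331907 per library and did not pass the same test (adjusted p = 0.597, exact permutation), nor did the share of counts from mitochondrially encoded genes (41.8% in low casein and 41.0% in normal casein, adjusted p = 0.597, exact permutation).

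Some libraries stood apart by markers of tissue other than ventricle. LP mouse 13 had a summed normalized count of 263040 over 6 atrial markers and 8346 over 8 adipocyte markers. LP mouse 20 had 12798 over the B and T cell list, where the other 19 libraries lay between 233 and 2045, and 4540 over the adipocyte markers. Atrial sums over 50000 were also found in NP mouse 5, LP mouse 15, HF mouse 1, HF mouse 3 and HF + LP mouse 3. Cardiomyocyte markers were abundant in each library, with sums between 660362 and 1073764.

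Interferon-stimulated genes are switched on downstream of interferon receptors by transcription factors that bind the interferon-stimulated response element, and IRF7 amplifies the response. In the heart these genes are expressed by macrophages, endothelial cells, fibroblasts and cardiomyocytes. Low protein intake is known to engage the amino acid sensors GCN2 and mTORC1, and GCN2 acts through the transcription factor ATF4 on amino acid transport and synthesis.

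A sequence known from interferon-stimulated genes was searched, because 6 of the 12 leading lower genes belong to the interferon response list. It is shown for the 5 searched genes that held a match. Among the 6 leading genes of that list, Ifit3 alone held a match. Ifit3, Isg15 and Bst2 are members of that list, Ifi213 was placed with cytosolic DNA sensing and B2m with MHC presentation. A form of the interferon-stimulated response element, GAAA followed by any 2 bases and GAAA, was searched on both strands in the 250 bases before each RefSeq transcription start (GRCm38.p6). It was present for 17 of the 39 tested members of the interferon response list that had a window in the table (43.6%) and for 332 of 10316 tested genes with a window (3.22%). The capitals mark the matched letters, overlapping matches are joined, and lines are written 5′ to 3′ on the gene's strand. The stretches are Ifi213 at chr1:173599316-173599365 (minus strand), Ifit3 at chr19:34583353-34583436 (plus strand), Isg15 at chr4:156200855-156200916 (minus strand), Bst2 at chr8:71537567-71537622 (minus strand) and B2m at chr2:122147528-122147577 (plus strand).
Ifi213: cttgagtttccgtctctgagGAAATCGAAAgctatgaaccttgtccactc
Ifit3: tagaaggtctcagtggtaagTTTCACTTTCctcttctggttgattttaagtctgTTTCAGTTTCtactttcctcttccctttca
Isg15: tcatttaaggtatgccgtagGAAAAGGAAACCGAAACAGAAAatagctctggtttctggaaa
Bst2: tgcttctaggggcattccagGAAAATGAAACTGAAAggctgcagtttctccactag
B2m: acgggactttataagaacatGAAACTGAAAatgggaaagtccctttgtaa
Isg15 held 3 overlapping matches, Ifit3 and Bst2 held 2 each, and Ifit3 held them on the opposite strand. The windows of Irf7, Phf11d and Ifi44 held no match to these letters, which says nothing of other forms of the element. No window was available for Oas2, Rtp4 and Ifi27l2a, so these genes could not be searched. A match describes the sequence and is not a measured binding site.

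Over all genes, 0 of 13991 passed the threshold for the casein main effect (edgeR quasi-likelihood test, adjusted p under 0.01 and base mean, the mean normalized count over the 20 libraries, over 50), which is 0% of the genes tested. The count was also 0 at an adjusted p under 0.05, and the smallest adjusted p was 0.648, for Hsd17b7. At an unadjusted p under 0.05 there were 704 genes (5.03% of those tested), 430 higher (3.07%) and 274 lower (1.96%) in low casein. This split moved with the libraries. Without LP mice 13 and 20 there were 448 higher and 450 lower of 14141 genes. Without the 6 libraries of high atrial sum there were 532 higher and 377 lower of 14083. DESeq2 with the same additive model called 0 genes at either threshold, and its smallest adjusted p was 0.0612, for Cmklr1. It had 728 genes at an unadjusted p under 0.05, 375 higher and 353 lower. DESeq2 fitted to 4 groups, with the casein effect averaged over the fat levels, called 1 gene, Irf7 (log2 fold change -1.58, adjusted p = 0.00343), and had 14 genes at an adjusted p under 0.05. Hsd17b7 was the higher gene among these 14, and the 13 others included Cmklr1, Irf7, Ifit3, Oas2, Ifi44 and Rtp4, all lower. The precision was such that the 95% interval of the log2 fold change lay within -0.5 to 0.5 for 8435 of the 10159 genes with a base mean over 50 (83.0%) and within -1 to 1 for 97.4% of them.

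The casein effect at normal fat (LP against NP) and at high fat (HF + LP against HF) came from libraries that were not shared between the comparisons. Across the 13991 genes the 2 sets of log2 fold changes had a Pearson correlation of -0.17, and 45.4% of genes had the same direction. At an unadjusted p under 0.05 in both comparisons there were 17 genes in the same direction (0.122%) and 24 in opposite directions (0.172%). This relation moved with the libraries included. With any 1 mouse left out it lay between -0.29 (without HF + LP mouse 3) and -0.01 (without HF mouse 3), with -0.02 without LP mouse 13. The 17 genes in the same direction and 24 in opposite directions became 17 and 65 without HF + LP mouse 3, and 28 and 18 without NP mouse 4. The correlation was 0.21, with 55.9% of genes in the same direction, without LP mice 13 and 20. Without these LP mice there were 24 genes in the same direction and 6 in opposite directions at an unadjusted p under 0.05 in both comparisons. Without the 6 libraries of high atrial sum, which include LP mouse 13, the correlation was -0.08, with 35 genes in the same direction and 60 in opposite directions. Leaving out LP mice 13 and 20 together, or the 6 libraries, was decided after the data were seen. Genes are not independent replicates.

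**Figure D1:**
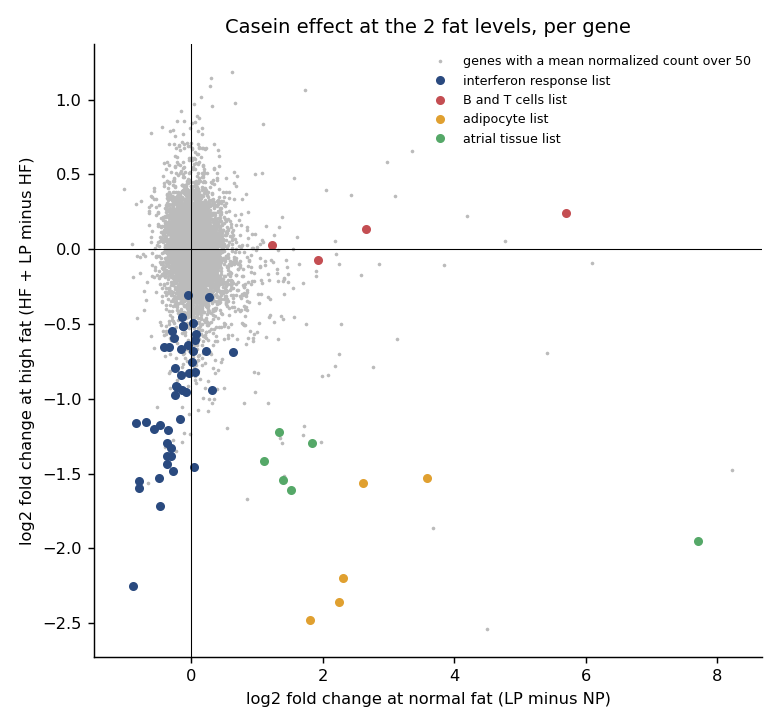
Log2 fold change with low casein at normal fat (x axis, LP minus NP) and at high fat (y axis, HF + LP minus HF) for genes with a base mean over 50, with 4 gene lists in color. Interferon-stimulated genes lie below 0 on the y axis and near or below 0 on the x axis. Adipocyte and atrial markers lie above 0 on x and below 0 on y, and B and T cell genes extend along the x axis. Single libraries moved the marker medians. The adipocyte median at high fat was -2.01, and 1.35 without HF mouse 3. The atrial median at normal fat was 1.46, and 0.01 without LP mouse 13. At high fat the atrial median was -1.48, and -0.20 without HF mouse 1.

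Per comparison, edgeR called 0 genes at normal fat, with 1003 at an unadjusted p under 0.05 (693 higher, 4.95%, and 310 lower, 2.22%), and 0 genes at high fat, with 672 at an unadjusted p under 0.05 (335 higher, 2.39%, and 337 lower, 2.41%). Without LP mice 13 and 20 the normal-fat comparison had 372 such genes (232 higher and 140 lower). DESeq2 called 4 genes at normal fat and 16 at high fat. The interaction of casein and fat, which tests whether the casein effect differs between the fat levels, called 0 genes in edgeR, with 995 at an unadjusted p under 0.05 (7.11%), and 1 gene in DESeq2. The groups did not overlap for 0.786% of genes at normal fat and 1.18% at high fat, and at both, in the same direction, for 1 gene of 13991 (0.00715%), whose base mean was under 50. With a base mean over 50 and an unadjusted p under 0.05 at both fat levels, 5 genes were higher (Hsd17b7, 9530026P05Rik, Tmem245, Hey1 and Nxf1) and 7 were lower (Cmklr1, Oas2, Agrn, Ankrd28, Pcdh1, Ssc5d and Thbs2) in low casein, and 14 had opposite directions.

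Of the 12 genes with the smallest p among those higher in low casein, 9 had an unadjusted p under 0.05 at normal fat, 7 at high fat and 4 at both. Over all genes the shares higher at this p were 4.95% at normal fat and 2.39% at high fat, but the 12 genes were chosen on these values. Their log2 fold changes lay between 0.24 and 0.97 and their adjusted p between 0.648 and 0.788 (edgeR). Because these genes were chosen for a shared direction and a small p, the agreement of direction is no result. Hsd17b7, which reduces a sterol ketone in cholesterol synthesis, is annotated at chr1:169949535-169969241 on the minus strand (GRCm38). Its normalized counts were 165, 172, 173, 184 and 226 in NP and 171, 208, 267, 280.1 and 306 in LP mice. They were 149.6, 159, 159.8, 177 and 202 in HF and 208, 223, 240.4, 255 and 318 in HF + LP mice. The high-fat groups did not overlap, whereas LP mouse 20, at 171, and LP mouse 15, at 208, lay within the NP range. Hsd17b7 differed by 0.42 ± 0.15 (log2, SE) at normal fat and 0.56 ± 0.15 at high fat, and by 0.49 ± 0.11 overall (unadjusted p = 0.000142, adjusted p = 0.648, edgeR).

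Tmem245 encodes a multi-pass membrane protein. Its counts were 541, 556, 576, 600.3 and 616 in NP and 601, 615, 681, 698 and 722 in LP mice, and were 369, 389, 394, 436 and 454 in HF and 481, 491, 498, 504 and 509.6 in HF + LP mice. The HF and HF + LP ranges did not overlap, and the NP and LP ranges touched, since the lowest LP value lay below the highest NP value. Tmem245 differed by 0.24 ± 0.06 on the log2 scale (adjusted p = 0.648), the smallest difference of the 12. Hey1, a transcriptional repressor downstream of Notch, was at 163 ± 26.1 in LP against 124 ± 17.0 in NP and 172 ± 21.4 in HF + LP against 137 ± 16.9 in HF (normalized counts, SD, n = 5), with overlap at each fat level.

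Further genes of the 12 with known roles were Egflam, an extracellular matrix protein (0.37 ± 0.10), Alox12, an arachidonate lipoxygenase (0.48 ± 0.13), Chd3, a chromatin remodeler of the NuRD complex (0.40 ± 0.12), Prps2, which makes the precursor of nucleotides (0.36 ± 0.11), and Ppbp, a platelet chemokine (0.97 ± 0.28). Ppbp counts reached 322 in HF + LP mouse 3, against 40.3 to 106 in the other HF + LP mice, and its difference was 0.59 without that mouse and 0.56 without the 6 libraries of high atrial sum. With body weight as a covariate it was 0.58, and that of Prps2 was 0.17. HF + LP mouse 3 also had the highest sum over 6 erythroid markers, at 313633, where the other 19 libraries lay between 60805 and 223580. With fat as covariate the 6 erythroid markers were all above 0, with a median of 0.38 and 0 at an unadjusted p under 0.05. Their part in the Ppbp difference was not tested. Simc1 differed by 0.56 ± 0.15. The remaining genes, 9530026P05Rik (antisense to Adamts9), Gm38380 (within Ncoa2) and Gm43792 (within Apbb2), are antisense or provisional transcripts that overlap another gene. Gm38380 and Gm43792 lie on the same strand as the gene around them, so strand would not separate their reads. For 9530026P05Rik the counting is not stated to use strand. Reads of these overlapping genes therefore cannot be assigned with certainty.

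**Figure D2:**
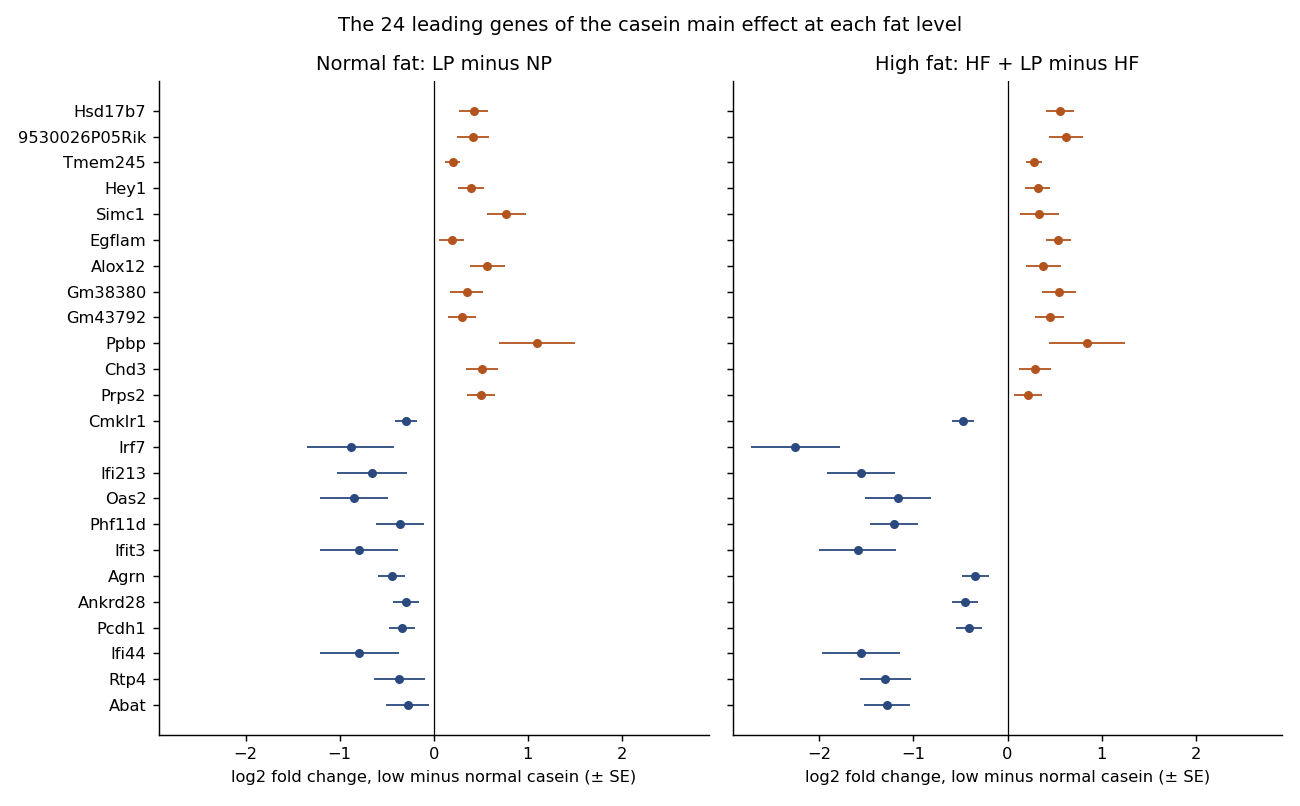
Log2 fold change with low casein (x axis, point, with SE as bar) of the 24 leading genes at normal fat (left) and at high fat (right). The 12 higher genes have a median size of 0.42 at normal and 0.41 at high fat, although single genes differ between the fat levels, such as Egflam (0.19 and 0.54) and Simc1 (0.77 and 0.34), and the 12 lower genes have a larger median size at high fat (1.24 against 0.41), with the exception of Agrn (-0.45 at normal and -0.34 at high fat).

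The 12 leading lower genes were chosen in the same way, so their counts per fat level are a description. All 12 had an unadjusted p under 0.05 at high fat and 5 had it at normal fat, where 2.41% and 2.22% of all genes were lower. Their log2 fold changes lay between -1.59 and -0.37, each with an adjusted p of 0.648 (edgeR). Those outside the interferon response included the receptor gene Cmklr1, Agrn, Ankrd28, Pcdh1 and Abat. Cmklr1 counts were 184, 199.6, 227, 236 and 251 in NP and 160.0, 164, 186, 190.3 and 196 in LP mice. They were 247, 253, 271, 274 and 357 in HF and 169, 197, 207, 214 and 220.1 in HF + LP mice. The high-fat groups did not overlap, and the normal-fat groups did. Cmklr1 differed by -0.29 ± 0.12 at normal and -0.47 ± 0.12 at high fat, and by -0.38 ± 0.08 overall (log2, SE, unadjusted p = 0.000153).

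Agrn encodes agrin, a heparan sulfate proteoglycan of basement membranes. Its counts were 476, 555, 557, 567 and 650.4 in NP and 359, 381, 395, 454 and 474 in LP mice, with no overlap. They were 418, 435, 632, 666 and 696 in HF and 392, 400.0, 443, 463 and 547 in HF + LP mice, with overlap. Agrn differed by -0.39 ± 0.10 on the log2 scale overall. Ankrd28, a subunit of protein phosphatase 6, differed by -0.37 ± 0.10, and Pcdh1, a protocadherin, by -0.38 ± 0.10. Abat, which breaks down the neurotransmitter GABA, had 49.6 ± 22.7 counts in HF + LP against 121 ± 27.9 in HF mice, with no overlap, and 129 ± 12.7 in LP against 156 ± 22.3 in NP mice, with overlap (SD, n = 5). Its interaction had an unadjusted p of 0.00724 and an adjusted p of 0.655 (edgeR). The matrix genes Thbs2 and Ssc5d, which were also lower at both fat levels and were named after their values were seen, differed by -0.39 ± 0.11 and -0.48 ± 0.13.

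The interferon response list held 55 tested genes. Over both fat levels 38 had an unadjusted p under 0.05 and were lower, against 1.96% of all genes tested, and 0 were higher. All 55 had a log2 fold change below 0, against 43.8% of all genes tested, and the median was -0.57 where that over all genes was 0.02. By fat level, 49 were lower at an unadjusted p under 0.05 at high fat, against 2.41% of all genes, and 2 at normal fat, against 2.22% of all genes, so that the normal-fat count was near the share over all genes. At both fat levels 40 of 55 had a log2 fold change below 0, against 18.6% of all genes. The normal-fat median of -0.22 was -0.35 without NP mouse 4, -0.03 without NP mouse 5 and -0.02 without the 6 libraries of high atrial sum. In the interaction, 23 of 55 had an unadjusted p under 0.05, against 7.11% of all genes, and the interaction was below 0 in all 55. None of the 55 was called in edgeR.

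Irf7 counts were 109.8, 169, 175, 312 and 514 in NP and 107, 121, 134, 137 and 188 in LP mice. They were 209, 479, 1219, 1325 and 1463 in HF and 101, 161, 169.8, 236 and 319 in HF + LP mice. In HF 4 mice lay above each HF + LP mouse and 1 lay within the HF + LP range, and the LP range lay within that of NP apart from its lowest value. Irf7 differed by -0.88 ± 0.47 at normal and -2.25 ± 0.47 at high fat (log2, SE), and by -1.59 ± 0.37 overall (adjusted p = 0.648).

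Ifit3, an antiviral protein induced by interferon, had counts of 153, 227, 259, 261 and 467 in NP and 95.4, 134, 178, 181 and 193 in LP mice. They were 212, 295, 798, 847 and 974 in HF and 103, 125, 164, 317 and 329 in HF + LP mice. Ifit3 values overlapped at both fat levels, and 3 HF mice lay above each of the HF + LP mice. Ifit3 differed by -1.20 ± 0.30 overall. The 2′-5′ oligoadenylate synthetase Oas2 differed by -0.84 at normal and -1.16 at high fat and was the member of the list among the 24 genes with an unadjusted p under 0.05 at both fat levels. Ifi44, Rtp4 and Phf11d differed by -1.18, -0.84 and -0.79 over both fat levels, and Ifi213, which was placed with cytosolic DNA sensing, by -1.13. The ubiquitin-like modifier Isg15 differed by -0.47 at normal and -1.72 at high fat, and Ifi27l2a by -0.28 and -1.48.

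**Figure D3:**
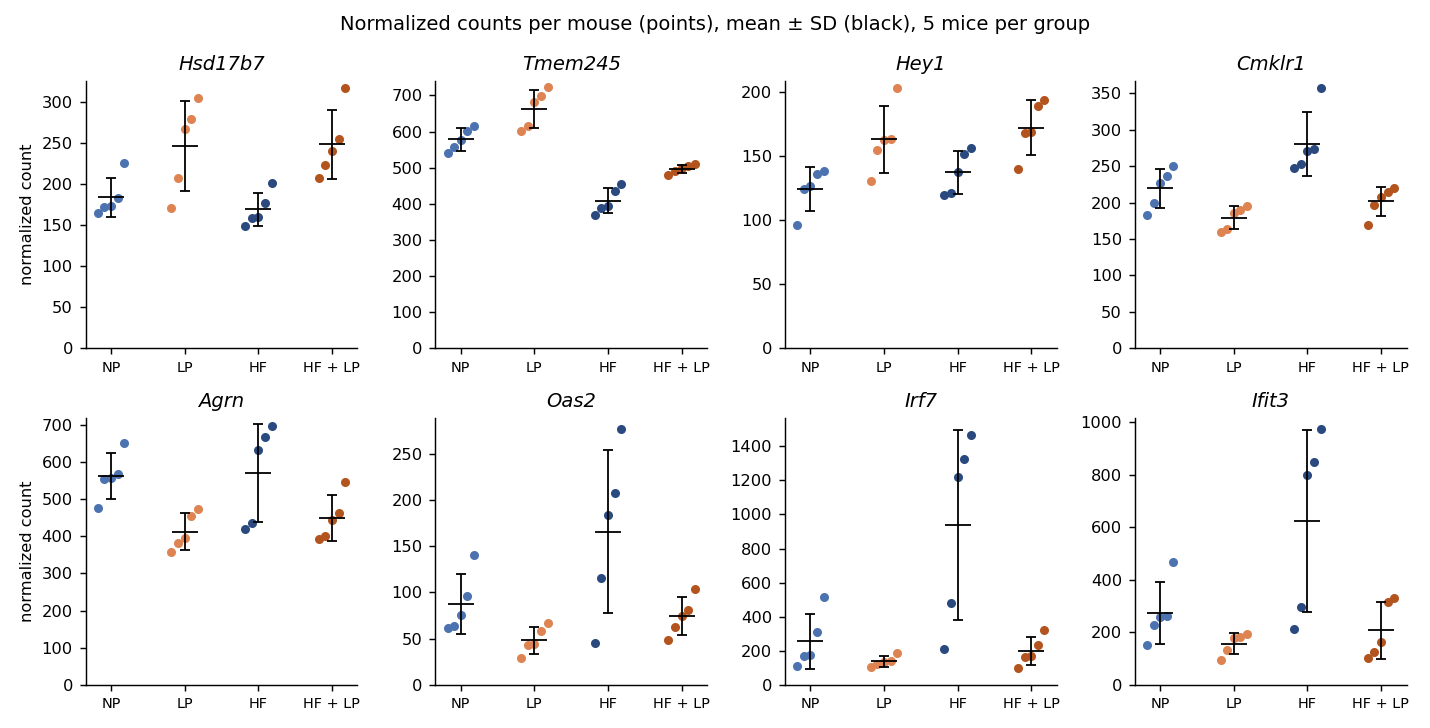
Normalized counts (y axis, from 0) per mouse (points) with mean and SD (black) in the 4 diet groups for 8 of the leading genes. Irf7 in HF mice ranges from 209 to 1463 while the other groups lie at or below 514, and the low-casein values of Tmem245 and Hsd17b7 lie above those of HF at high fat.

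The summed normalized count of the interferon response list was 10919 to 21488 in NP, 10207 to 16125 in LP, 14339 to 37309 in HF and 12484 to 15548 in HF + LP mice. The LP and NP ranges overlapped, and so did those of HF and HF + LP, where 1 HF mouse, at 14339, lay below 2 HF + LP mice. Myeloid marker sums moved with the same groups, at 13015 to 16690 in HF and 10263 to 12609 in HF + LP, with no overlap, and at 9714 to 11397 in NP and 7573 to 14982 in LP, with overlap. Their part in the result was not tested. With body weight as a covariate 10 of the 55 members of the interferon response list were lower at an unadjusted p under 0.05, and the median stayed at -0.59. Without LP mice 13 and 20 there were 47, against 450 of 14141 over all genes. With any 1 mouse left out there were 31 to 45, with 53 to 55 of the 55 below 0.

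**Figure D4:**
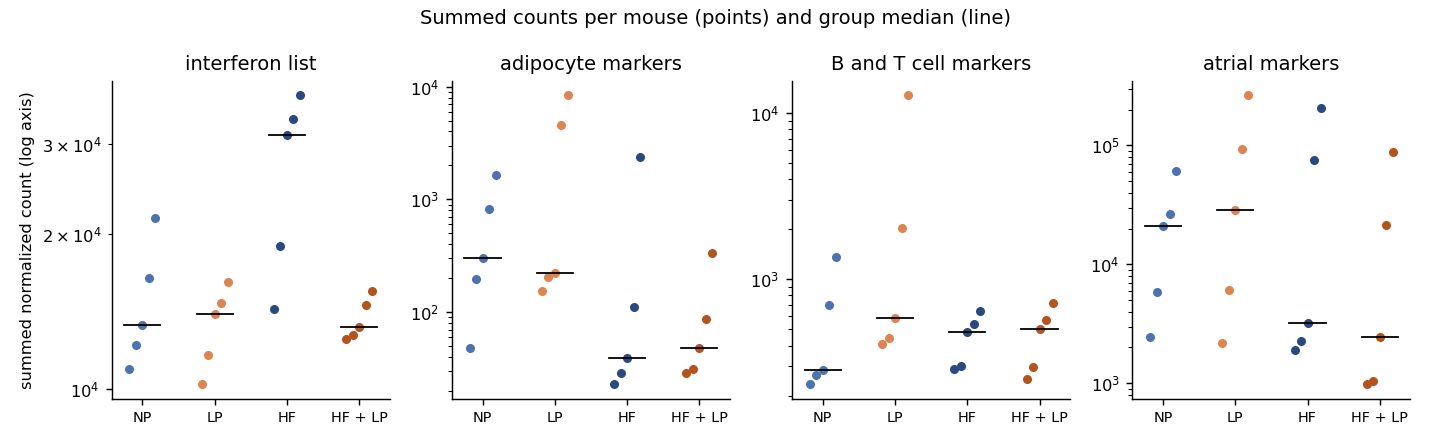
Summed normalized counts (y axis, log scale) of the interferon response list and of 3 marker lists per mouse (points), with the group median (line). In HF mice the interferon sum reaches 37309 while LP, HF + LP and NP lie at or below 21488, and LP mice 13 and 20 have the highest adipocyte sums.

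Other innate immune lists had medians below 0 at high fat, and at normal fat those of MHC presentation, myeloid cells, and chemokines and cytokines were above 0 with all libraries included. Counts at an unadjusted p under 0.05 stand against 1.96% of all genes lower and 3.07% higher. Cytosolic DNA sensing had 7 of 15 tested genes lower and 0 higher, with a median of -0.31, which was -0.14 at normal and -0.52 at high fat. Its median was -0.10 without HF mouse 2 and -0.12 without HF + LP mouse 4, where 17 genes were tested. The normal-fat median was 0.07 without NP mouse 5 and 0.02 without LP mouse 5, so that its direction turned, and the high-fat median was -0.25 without HF mouse 2. The list is led by the PYHIN genes Ifi213, Ifi205, Ifi204 and Ifi211, which are interferon-stimulated too. Ifi205 differed by -0.46 ± 0.15 and Ifi204 by -0.81 ± 0.27. MHC class I and II presentation had 3 of 25 lower and 0 higher, which became 3 lower and 4 higher without LP mouse 5 and 5 lower without LP mouse 13 or LP mouse 20, with 19 of 25 above 0 at normal fat (median 0.11) and 19 below 0 at high fat (median -0.64). B2m, which encodes beta-2 microglobulin of class I molecules, and H2-Q7 differed by -0.46 ± 0.15 and -0.57 ± 0.22. The median over both fat levels was -0.07, and it was -0.23 without LP mouse 20 and -0.16 without NP mouse 3. Without LP mice 13 and 20 it was -0.44 with 10 members lower, against 450 of 14141 genes. The normal-fat median of MHC class I and II presentation was -0.11 without these mice, and 0.02 (without LP mouse 20) to 0.29 (without NP mouse 8) with any 1 mouse left out. The high-fat median was -0.32 without HF mouse 5 and -0.38 without HF mouse 3. The myeloid cells list had 5 of 35 lower, among them Ms4a7, Ms4a6c, Fcgr3 and Tyrobp. It had 16 lower without LP mice 13 and 20, against 450 of 14141 genes. Without the 6 libraries of high atrial sum it had 14 lower, against 377 of 14083 genes. There were 9 lower without LP mouse 13, and 2 without any 1 of LP mouse 5, HF mice 2, 4 and 5 and HF + LP mouse 1, as with body weight as a covariate. In this list 29 were above 0 at normal fat (median 0.11) and 34 below 0 at high fat (median -0.41). The normal-fat median of the myeloid cells was -0.01 without LP mouse 13 and -0.04 without LP mice 13 and 20. Among chemokines and cytokines, 4 of 26 were lower and 2 higher, and 19 were above 0 at normal fat (median 0.08) and 21 below 0 at high fat (median -0.22). Ccl8 and Cxcl9, ligands for monocytes and T cells, differed by -0.59 ± 0.18 and -0.56 ± 0.21, and Cxcl12 by 0.25 ± 0.09.

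Genes that answer amino acid supply had few members at an unadjusted p under 0.05, where 3.07% of all genes were higher and 1.96% lower. In the ATF4 and amino acid response list 0 of 27 genes were higher and 3 were lower, with a median of -0.07. At high fat 25 of the 27 were below 0 (median -0.17), and at normal fat 12 were (median 0.02). With any 1 mouse left out the normal-fat median of the ATF4 and amino acid response list lay between -0.07 (without LP mouse 13) and 0.07 (without LP mouse 5), so that its direction turned, and the high-fat median between -0.27 (without HF + LP mouse 4) and -0.17. The median over both fat levels was -0.15 without LP mouse 13 and -0.22 without LP mice 13 and 20. There were 5 lower without LP mouse 13 and 1 without NP mouse 6, HF mouse 2 or HF + LP mouse 4. The 3 lower genes were Ddit3 and Atf5, transcription factors of the stress response, and Gdf15, a stress-induced hormone (-0.33 ± 0.12, -0.28 ± 0.13 and -0.65 ± 0.28). Amino acid transporters had 1 of 25 higher, the cationic amino acid transporter Slc7a1, at 350.6 ± 36.8 in NP and 420.3 ± 76.2 in LP and at 337 ± 37.9 in HF and 404 ± 85.3 in HF + LP mice (counts, SD, n = 5). Slc7a1 differed by 0.26 at both fat levels, with an overall SE of 0.10 and adjusted p of 0.894. Aminoacyl-tRNA synthetases (20 tested), mTORC1 and GCN2 sensing (36), autophagy and mitophagy (44), and mitochondrial dynamics and biogenesis (20) had 0 members at an unadjusted p under 0.05 in either direction, with medians between -0.04 and 0.01. Branched-chain amino acid breakdown had 1 of 23 lower, Ivd (-0.26 ± 0.10), and other amino acid breakdown and nitrogen had 2 of 29 lower, Abat and the proline-pathway enzyme Aldh4a1 (-0.18 ± 0.08). The AMPK and LKB1 list, a sensor of energy and its upstream kinase, had 2 of 13 higher, the AMPK subunit Prkab1 (0.18 ± 0.08) and the AMPK substrate Acaca (1.14 ± 0.49), which was 0.09 without LP mice 13 and 20. Counts of 1 or 2 genes in these lists are too near the shares over all genes to describe the lists. With body weight as a covariate the differences of Gdf15, Ivd, Aldh4a1 and Prkab1 were -1.15, -0.14, -0.09 and 0.36.

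**Figure D5:**
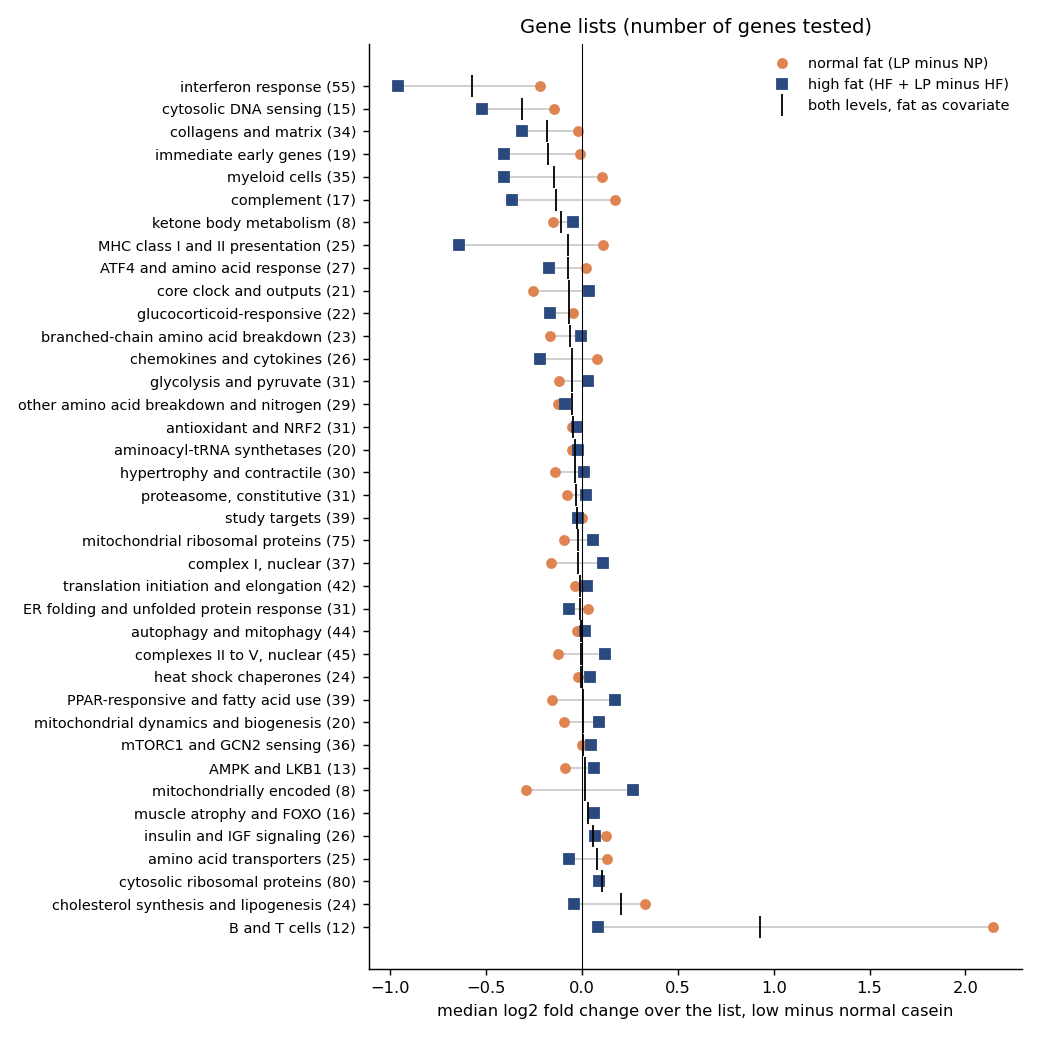
Median log2 fold change with low casein (x axis) over gene lists of at least 8 tested genes, tissue marker lists left out, at normal fat (circles), at high fat (squares) and with fat as covariate (ticks), with the number of genes tested in brackets. Of the lists plotted, interferon response has the lowest median at high fat (-0.96), and B and T cells the highest at normal fat (2.14). The latter was 0.82 without LP mouse 20.

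Cytosolic ribosomal proteins had 77 of 80 genes above 0, against 56.2% of all genes tested, with a median of 0.11 (0.09 at each fat level). At high fat the median was 0.05 without HF + LP mouse 3. Higher at an unadjusted p under 0.05 were 6, against 3.07% of all genes, and 2 to 15 with any 1 mouse left out. Rpl21, Rpl23, Rps21 and Rps28 differed by 0.21 ± 0.07, 0.21 ± 0.07, 0.14 ± 0.06 and 0.14 ± 0.06. Ribosomal protein genes have many processed pseudogenes, so the reads assigned to a member are uncertain. Without the libraries of high atrial sum 5 of 81 tested cytosolic ribosomal proteins were higher at an unadjusted p under 0.05, against 532 of 14083 genes. Of the 81, 15 had a log2 fold change below 0. Collagens and matrix had 6 of 34 lower, against 1.96% of all genes, and 0 higher, with 32 below 0 and a median of -0.18, which was -0.02 at normal and -0.31 at high fat. Without LP mouse 13 there were 18 lower, with a median of -0.28 and a normal-fat median of -0.16. The normal-fat median turned to 0.03, 0.02 and 0.01 without LP mouse 2, LP mouse 20 and LP mouse 5. Without the 6 libraries of high atrial sum 20 were lower, against 377 of 14083 genes, with a list median of -0.32. The 8 fibroblast markers, of which Col1a1, Col1a2, Dcn and Lum are also in the list, moved with it. All 8 were below 0 with fat as covariate (median -0.12) and at high fat (median -0.19). Their sums were 28847 to 39551 in HF and 26403 to 34378 in HF + LP, which overlap. Their part in the result was not tested. Sparc, a collagen-binding protein, and the gelatinase Mmp2 differed by -0.25 ± 0.08 and -0.24 ± 0.08, and Mmp2 by -0.06 with body weight as a covariate. Col8a1, a short-chain collagen, differed by -0.41 ± 0.15, and by -0.72 with body weight as a covariate. Fstl1, a secreted glycoprotein, differed by -0.28 ± 0.10 and had an interaction at an unadjusted p of 0.00195 (edgeR, 0.02 at normal and -0.57 at high fat).

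Insulin and IGF signaling had 2 of 26 genes higher, against 3.07% of all genes, and 1 lower, against 1.96%, counts too small to describe the list. Irs2, an adaptor of the insulin receptor, had 137 ± 33.0 counts in NP and 215 ± 52.5 in LP, and 143 ± 36.4 in HF and 179.8 ± 54.0 in HF + LP mice, a difference of 0.49 ± 0.16. Tbc1d4, which controls glucose transporter traffic, differed by 0.23 ± 0.09, and Ide, which degrades insulin, by -0.41 ± 0.19. Foxo1, a transcription factor that insulin signaling restrains, had counts of 492, 505, 522, 541 and 567 in NP and 585, 619, 625.3, 639 and 658 in LP mice, with no overlap, and 550.4 ± 30.9 in HF against 600.5 ± 59.4 in HF + LP mice, with overlap. Foxo1 differed by 0.19 ± 0.06 overall. Angptl4, a fasting-induced inhibitor of lipoprotein lipase, differed by 0.92 ± 0.42, and the glycolytic enzyme Pgam2 by -0.26 ± 0.09, and these differences were 0.57 and -0.16 without LP mice 13 and 20. With body weight as a covariate that of Angptl4 was 1.88 and that of Ide was -0.25. Antioxidant and NRF2 genes had 2 of 31 lower, against 1.96% of all genes, Nqo1 (-0.38 ± 0.14) and Gsta4 (-0.23 ± 0.09). The sarcomeric gene Acta1 differed by -0.79 ± 0.35, with 206 counts in the lowest LP mouse against 2885 to 5887 in the other LP mice.

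The counts of higher lipogenic genes rested on LP mice 13 and 20, which stood apart, and those of lymphoid genes mostly on LP mouse 20. Cholesterol synthesis and lipogenesis had 4 of 24 genes higher, against 3.07% of all genes, all of them genes of fatty acid synthesis. Fasn, Elovl6, Acly and Acaca differed by 4.20, 4.78, 1.33 and 2.20 at normal fat and by 0.22, 0.06, 0.15 and -0.03 at high fat (log2). Fasn counts were 221, 241, 434, 2951 and 15709.9 in LP mice and 169 to 258 in NP mice, and LP mice 13 and 20 were also those with the highest adipocyte marker sums. Without them 1 gene of the cholesterol synthesis and lipogenesis list was higher at an unadjusted p under 0.05, with a median of 0.02. Hsd17b7, which was not placed in this list, differed by 0.51 without these mice. The 1 lower gene of the list, Apod, an apolipoprotein, had 154 ± 22.6 counts in HF + LP against 363 ± 123 in HF mice and 173 ± 31.0 in LP against 175 ± 27.6 in NP mice. In the B and T cells list 6 of 12 genes were higher, with a median of 0.93, and 0 were higher without LP mice 13 and 20. Without LP mouse 20 alone 1 was higher (median 0.44), and without LP mouse 13 alone 5 were (median 0.89). Lck, a T cell kinase, had 1360 counts in LP mouse 20 and 2.39 to 23.6 in the other 19 libraries.

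A list was made of transcripts whose genes or proteins had also been measured by PCR or immunoblot. With fat as covariate, 1 of its 39 tested members, Cxcl9, was lower at an unadjusted p under 0.05 and 0 were higher. That is near the shares over all genes (1.96% lower and 3.07% higher), and the median over the list was -0.03. Between HF + LP and HF, 3 were lower and 0 higher at this p, against 2.41% and 2.39% of all genes. Between LP and NP, 0 were lower and 1 higher, against 2.22% and 4.95%. The autophagy kinase Ulk1 differed by 0.27 ± 0.16, the growth factor receptor Igf1r by 0.20 ± 0.13, the mitochondrial fusion gene Opa1 by -0.12 ± 0.08, the autophagy gene Becn1 by -0.08 ± 0.06, and Tmem173, which encodes the DNA-sensing adaptor STING, by -0.12 ± 0.10 (log2, SE). The Igf1r difference was 0.40 without the 6 libraries of high atrial sum and 0.01 with body weight as a covariate. Each of these 5 intervals of 95% included 0, with bounds of -0.07 to 0.61 for Ulk1. Counts measure transcripts and not the proteins or their phosphorylation.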

How the data were processed

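Left ventricular RNA of 20 mice, 5 per diet group, was measured by QuantSeq 3′ mRNA sequencing. The deposited values are raw counts of reads for each Ensembl gene, which the authors made with BlueBee software, with GRCm38 and DESeq2 1.22.2 named in the submitters' processing notes. The counting program and annotation are not given in the sources used here. Of 15956 listed genes, 15917 matched GENCODE M21. Groups came from the labels. Counts were filtered with filterByExpr by diet group, scaled by TMM and fitted in R 4.3.3 with edgeR 4.0.16 (quasi-likelihood, robust, model of fat and casein, and a model of 4 groups for each fat level and the interaction). A call needed a base mean over 50 and an adjusted p (Benjamini-Hochberg) under 0.01. SE were derived from the F statistic. DESeq2 1.42.0, other scalings and filters, body weight and left-out mice were alternatives. Scripts were tested on simulated data. P-values measure the spread between mice.

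The members and gene lists were chosen with earlier results of these data known. The text names the 12 higher and 12 lower genes of smallest p with a shared direction and a base mean over 50, up to 4 such genes per list, and up to 6 genes the study measured by other assays. Other genes were chosen after their values were seen. Lists are described by counts and medians, with no set test. Promoter sequences are from RefSeq.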

Additional observations from a re-analysis of the deposited data

Results flagged for a closer look

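A mouse far from the other 4 of its group, by Dixon's gap test at the 95% level, was found 9 times in 128 groups of 5 values (the 24 leading genes and 8 sample measures in 4 diet groups). Chance flags about 1 in 20 groups. Among the leading genes, Pcdh1 was lowest in NP mouse 8 at 91.6 normalized counts, and Alox12 was highest in LP mouse 2 at 185. Cmklr1 was highest in HF mouse 2 at 357, Ppbp in HF + LP mouse 3 at 322, and Ifi44 in HF + LP mouse 4 at 304.

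Among the marker sums, the B and T cell sum was 12798 in LP mouse 20. The adipocyte sum was 2365 in HF mouse 3 and 332 in HF + LP mouse 3, and the atrial sum was 88056 in HF + LP mouse 3. The B and T cell list had 6 members higher at an unadjusted p under 0.05 with LP mouse 20 and LP mouse 13 included and 0 without them. Without LP mouse 20 alone there was 1, and without LP mouse 13 alone there were 5.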

How the results depend on the processing

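The count of genes called for the casein main effect was 0 with edgeR under each alternative run, including other scaling, other filters, the 4-group model, body weight as covariate and every left-out mouse, and with DESeq2 in the additive model. It was 1 (Irf7, log2 fold change -1.58) with DESeq2 and 4 groups, an alternative added after seeing the data. The fits without LP mice 13 and 20 and without the 6 libraries of high atrial sum were also added after seeing the data. At normal fat DESeq2 called 4 genes, at high fat it called 16, and for the interaction it called 1, where edgeR called 0. At high fat edgeR called 16 genes without the 6 libraries of high atrial sum, and 0 to 1 with a mouse left out, the 1 gene without HF mouse 1. The cause was not tested. Without LP mice 13 and 20 the median of MHC class I and II presentation moved to -0.44 and that of the adipocyte markers to -1.72. The 2416 alternative values of the 78 genes followed singly kept their direction, which is no result. Many of these genes were chosen for a small p in the same libraries, which the alternatives reuse. The side of the threshold on which the values fell carries little. The smallest adjusted p of the edgeR fit to all 20 libraries was 0.648. The sizes moved for Acaca (0.09 to 1.76), Fasn (0.33 to 3.21) and Igf1r (0.01 to 0.40), among others. For the lists 1272 of 1274 medians moved by less than the spread between mice, which does not make them stable. This spread was wide for some lists, at 0.91 for B and T cells, 2.02 for adipocyte and 3.17 for atrial markers. The B and T cell median went from 0.93 to 0.25 without LP mice 13 and 20.

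Same-numbered mice of different groups were different animals, and in 16 pairs the correlations of their deviations ran from -0.55 to 0.48, with 7 over 0.1, so the numbers do not pair the mice. With the animal number as a replicate block 0 genes were called for the casein main effect and 1008 had an unadjusted p under 0.05. The weight difference ranged from -11.6 to -9.20 g with a mouse left out. Depth limits the genes with few counts, and 5 mice per group limit the rest.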
